A study of Rattus norvegicus with 14 samples.

Results

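Sperm DNA of male Wistar rats was compared between males that had been maternally separated as pups and later ate a high-fat diet (ELS-HFD, 3 libraries) and males that ate the same diet without separation (HFD, 4 libraries). All 1653 regions that the authors' deposited table lists for this pair of groups were taken, of 8555 listed regions in the 5 tables of the series. Separation began on postnatal day 1 and lasted 3 h a day for 16 days, while HFD pups stayed with the dam. Both groups went through an elevated plus maze, a test of anxiety-like behaviour, on about postnatal day 57, and the diets began on day 60. Both groups therefore share the high-fat diet and the maze. Males on standard chow formed the other groups of the series used here, one separated (ELS, 4 libraries) and one not (control, 3 libraries). The comparison asks whether separation goes with a difference in sperm methylation when diet is held equal. Unless chow is named, a difference below is ELS-HFD minus HFD in percentage points, which is the opposite of the sign in the deposited table.

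DNA methylation is the addition of a methyl group to cytosine, in mammals mostly where a C is followed by a G, a step called a CpG. In mature sperm most CpGs are methylated, while CpG-rich promoters and the control regions of maternally methylated imprinted genes are largely free of it. Most of the sperm pattern is erased after fertilization, but imprinted genes keep the mark of the parent they came from. Reduced representation bisulfite sequencing (RRBS) cuts the genome at CpG-containing sites, so it reads mainly CpG-rich DNA. Bisulfite converts unmethylated cytosine, and the share of reads left unconverted gives a methylation percentage.

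The deposited table gives 1 percentage per region and library, without read counts, so the depth behind a value is unknown and no counting interval can be given. Libraries are numbered here by their order in the table, which is only a name. The labels do not say whether the libraries came from separate animals or pools, and a p-value therefore measures only the spread between these samples. A region's percentage is an average over a pool of cells, and less methylation per sperm and a different mix of cells cannot be told apart. Markers of the sperm label could be read for few genes. Of 4 genes with paternally methylated control regions, taken to be high in sperm, only Dlk1 was listed, at an intron with a mean of 16.2%. That value is not high, but the region lies 8631 bp from the Dlk1 start and was not shown to be the control region. Of 11 genes with maternally methylated ones, taken to be low, 3 were listed, in 6 regions with means from 3.07% to 20.6%. The highest of these lies 57624 bp before the start of Zrsr1. Of 15 germline genes taken as markers of the label, whose promoters are unmethylated in the germline, only Piwil1 was listed, in 2 intergenic regions and at no promoter. The cell type was thus not checked further by these data.

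Promoter regions of the list were mostly CpG-dense and at low methylation, and 3 promoters are printed here to show that density. Their sequences are from RefSeq on build GRCr8, each running 5′ to 3′ on the gene's strand over 250 bases before and 50 bases after a start site, with CG in capitals. The deposited coordinates are on Rnor_6.0, and the position of a region inside these windows was not mapped between the builds. Among listed promoter regions, 18 had groups without overlap, lay within that window of the deposited start site and had a gene in the RefSeq table, 12 of them lower and 6 higher in ELS-HFD. Over the whole list the groups did not overlap in 23.9% of regions. Usp15, a deubiquitinase, had the largest decrease of the 18 and Cdh22, a cadherin, the largest increase, and Grb10, an adaptor that restrains insulin signalling, is the imprinted gene among them. Usp15 and Cdh22 were chosen after their values were seen.
Usp15: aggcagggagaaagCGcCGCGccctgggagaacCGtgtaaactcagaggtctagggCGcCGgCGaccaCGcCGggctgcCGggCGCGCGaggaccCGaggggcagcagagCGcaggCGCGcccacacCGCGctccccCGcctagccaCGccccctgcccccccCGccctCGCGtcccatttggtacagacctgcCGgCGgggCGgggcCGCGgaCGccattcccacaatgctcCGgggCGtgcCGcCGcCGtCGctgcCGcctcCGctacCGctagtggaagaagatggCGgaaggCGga
Cdh22: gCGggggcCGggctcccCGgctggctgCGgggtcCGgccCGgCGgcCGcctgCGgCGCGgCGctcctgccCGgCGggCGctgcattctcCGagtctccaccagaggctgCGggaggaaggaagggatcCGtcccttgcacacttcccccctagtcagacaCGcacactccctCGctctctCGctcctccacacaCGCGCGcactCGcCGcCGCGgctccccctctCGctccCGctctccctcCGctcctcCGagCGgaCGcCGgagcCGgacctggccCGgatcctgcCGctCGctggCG
Grb10: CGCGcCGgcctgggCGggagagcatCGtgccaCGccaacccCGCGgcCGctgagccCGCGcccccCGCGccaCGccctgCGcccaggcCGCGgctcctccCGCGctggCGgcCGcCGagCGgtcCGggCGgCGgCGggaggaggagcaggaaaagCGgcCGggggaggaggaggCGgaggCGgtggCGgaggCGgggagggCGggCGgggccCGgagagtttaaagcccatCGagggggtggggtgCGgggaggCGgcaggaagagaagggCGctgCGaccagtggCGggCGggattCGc
The Usp15 window, chr7:60734050-60734349 on the minus strand, holds 41 CG dinucleotides. The Cdh22 window, chr3:174389843-174390142 on the minus strand, holds 40, and the Grb10 window, chr14:90816338-90816637 on the minus strand, holds 44. The median over all 33469 promoters of the table was 7, and 174 of the 258 genes with a listed promoter region could be matched to it, with a median of 24. At least 10 CG were present in 92.3% of the matched promoters and in 41.5% of all. Every listed region holds at least 10 CpGs and RRBS reads mainly CpG-rich DNA. A high density at listed promoters was thus largely set beforehand and is no result about these groups.

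At the Usp15 promoter (Rnor_6.0 chr7:66595731-66595789) methylation was listed at 0% in all 3 ELS-HFD libraries, against 1.82%, 10.5%, 1.82% and 0.833% in the HFD libraries. At the Cdh22 promoter (chr3:161917335-161917401) it was 23.99%, 24.001% and 24.7% in ELS-HFD, against 21.8%, 18.3%, 14.3% and 20.3% in HFD. At the Grb10 promoter (chr14:92117974-92118047, centred 87 bp before the start site) it was 2.34%, 4.67% and 10.03% in ELS-HFD, against 0.588%, 1.08%, 1% and 1.75% in HFD. The groups did not overlap at any of the 3, and none was called by the authors' q-value. In the 12 lower promoters of the 18, the highest ELS-HFD mean was 1.87%, against HFD means from 2.64% to 4.72%. These promoters thus had low methylation in both groups.

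Most listed regions were less methylated in ELS-HFD sperm. Of the 1653 regions, 1222 (73.9%) were lower and 431 higher in ELS-HFD, with a median difference of -2.96 points and a range from -27.9 to 28.1. The list is itself a selection, since each region holds at least 10 CpGs and a deposited difference over 2.5 points, so these shares describe the list and not the genome. Differences of 10 points or more were found in 139 regions, 110 of them lower. The median region was 96 bp long with 10 CpGs.

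The share lower in ELS-HFD was highest where methylation was scarce. Among 624 regions with a mean under 5%, 79.3% were lower, with median levels of 1.18% in ELS-HFD and 3.55% in HFD. Among 467 regions between 20% and 80% it was 67.9%, with a median difference of -5.33 points, and among 166 regions at 80% or more it was 64.5%. Promoter regions (269, with a median level of 2.59%) were lower in 76.2%, exon regions (443) in 77.2%, intron regions (315) in 71.7% and intergenic regions (574) in 71.3%. Across the autosomes the share ran from 57.7% on chromosome 6 to 84.0% on chromosome 17.

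**Figure D1:**
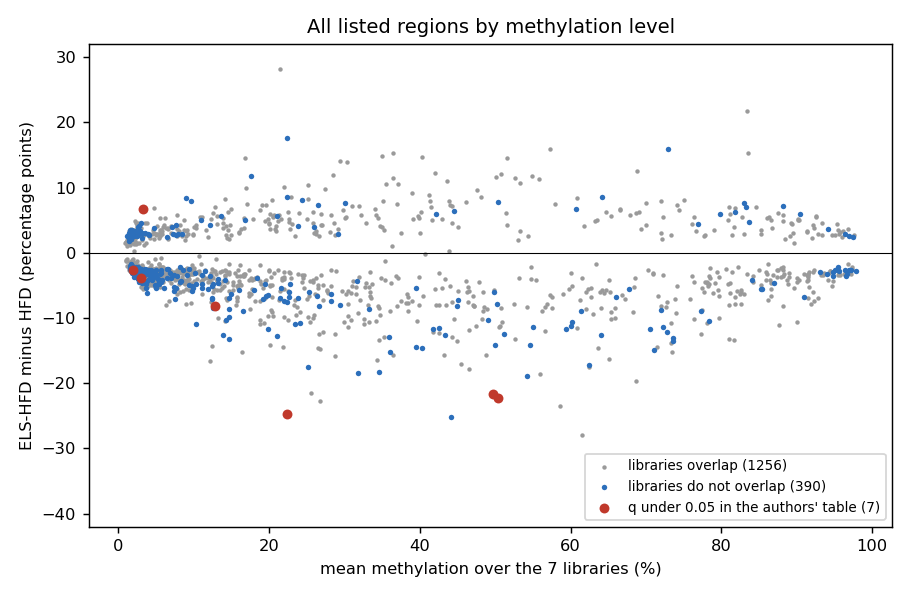
Mean methylation over the 7 libraries (x axis, %) against the difference ELS-HFD minus HFD (y axis, percentage points) for all 1653 listed regions, grey where libraries overlap, blue where they do not and red for the 7 called regions whether or not they overlap. Most points lie below 0, most of those with large differences lie at middle levels, and few points lie near 0, since the list holds deposited differences over 2.5 points.

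The libraries differed in how much they carried this direction. Median methylation over the list was 9.46%, 7.71% and 8.82% in the ELS-HFD libraries, against 9.79%, 11.8%, 11.7% and 12.4% in the HFD libraries. Among regions lower in ELS-HFD, ELS-HFD library 2 was the lowest of its group in 45.2%, and among the same regions HFD library 4 was the highest of its group in 35.7% and HFD library 1 in 12.03%. The part of single libraries in the direction was not tested beyond leaving each one out, which gave a share lower between 72.6% and 75.1%. The regions had been listed with all libraries and were not chosen anew. This range therefore cannot decide how far the direction rests on a single library. A set of 207 regions was listed only by the other tables. Regions with a listed difference over 2.5 points on this contrast were thus left out of the set beforehand. A small difference there follows in part from that selection, so the set is no unselected check. Its library means were 32.3%, 28.9% and 32.6% in ELS-HFD, against 30.7%, 32.2%, 31.95% and 32.4% in HFD. The group means were 31.3% ± 2.04 (SD, n = 3) in ELS-HFD and 31.8% ± 0.748 (SD, n = 4) in HFD, a difference of -0.550 points that was within the spread (two-sided exact permutation test, p = 0.8, smallest possible 0.0571). The values of the groups come from different tables, and where tables list an identical region 90.3% to 96.3% of library values were equal between them (within 1e-06 points). In those regions 117 (56.5%) were lower in ELS-HFD, with a median difference of -0.231 points.

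Few regions passed a test. The authors' q-value, from their region caller, was under 0.05 in 7 regions (0.423% of those listed), 6 lower (0.363%) and 1 higher (0.0605%) in ELS-HFD, and it was 1 in 97.9%. With limma on logit-scaled percentages and Benjamini-Hochberg adjustment over all 1653 regions, 0 passed (0% of those tested, lowest adjusted p = 0.139). Unadjusted limma p-values under 0.05 were found in 416 regions (332 lower, 84 higher), and in 217 on the percent scale. The regions had been listed for a difference between these same groups, so the test was biased towards low p-values. The unadjusted counts and their directions are thus no measure of signal. In 395 regions (23.9%) every ELS-HFD library lay on 1 side of every HFD library, below in 315 (19.1%) and above in 80 (4.84%). That count was 635 without ELS-HFD library 1 and 596 without HFD library 1, where fewer libraries have to separate. The list was chosen for differences on this contrast. At the 207 regions absent from the list, which were selected the other way, the groups did not overlap in 3.38%. Of these, 4 regions were lower and 3 higher in ELS-HFD. Neither share is thus a baseline for the other.

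The lowest q lay in an intergenic region 4916 bp before the start of Dpm3 (chr2:188578655-188578842, 24 CpGs), a subunit of the enzyme that makes dolichol-phosphate mannose for protein glycosylation. Methylation there was 50.6%, 23.5% and 38.2% in ELS-HFD, against 57.8%, 40.4%, 65.3% and 72.5% in HFD. The difference was -21.6 points with a q of 6.43e-06 in the authors' deposited table, although the libraries of the groups overlapped. A region in intron 9 of Disc1 (chr19:58002130-58002260), a scaffold protein gene studied in psychiatric illness, had 10.9%, 6.21% and 7.74% in ELS-HFD, against 7.402%, 44.4%, 41.7% and 38.6% in HFD. Here 1 HFD library lay among the ELS-HFD libraries and the other 3 lay far above them, and q was 0.00429 in the authors' deposited table. On chow the same region had 14.5%, 2.44%, 17.1% and 12.9% in ELS and 76.2%, 19.7% and 13.5% in control sperm, so 1 control library was high there too.

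Promoter and imprinted regions were among the calls. At the promoter of Traf6 (chr3:91252886-91252947), an adaptor that carries Toll-like and interleukin receptor signals to NF-kB, methylation was 0.662%, 0.345% and 0.361% in ELS-HFD, against 1.43%, 6.33%, 1.27% and 3.65% in HFD. The difference was -2.71 points (q = 0.0211 in the authors' deposited table) and -1.66 points without HFD library 2. In intron 2 of a Gnas transcript (chr3:172418745-172418790), the imprinted locus of the stimulatory G protein alpha subunit, methylation was 0.952%, 0% and 1.61% in ELS-HFD, against 6.11%, 4.67%, 3.12% and 5.13% in HFD. The groups did not overlap at either, and for Gnas the difference was -3.90 points with q = 0.0487 in the authors' deposited table.

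Of the remaining calls, 2 had groups without overlap in the lower direction and 1 in the higher. A region in intron 1 of a transcript with no gene name in the files (chr1:246989582-246989639) had 47.1%, 43.8% and 22.1% in ELS-HFD, against 48.05%, 66.9%, 65.2% and 59.3% in HFD. Its difference was -22.2 points, and -14.4 points without ELS-HFD library 3. An intergenic region on chromosome 2 (chr2:25655511-25655592) had 10.3%, 7.94% and 6.30% in ELS-HFD, against 13.7%, 20.8%, 12.6% and 18.4% in HFD. The single increase lay in exon 1 of Pcdhgc3 (chr18:30914510-30914576), a clustered protocadherin that mediates contact between neurons. Methylation there was 4.38%, 7.10% and 10% in ELS-HFD, against 0%, 2%, 0% and 0% in HFD, a difference of 6.66 points with q = 0.000929 in the authors' deposited table. Of the 7 called regions, 5 separated all libraries of the groups. At overlapping regions with chow values, Dpm3 averaged 49.95% in ELS and 63.7% in control sperm. The chromosome 1 intron averaged 43.4% in ELS and 45.7% in control, and the chromosome 2 region 7.33% and 11.8%. Pcdhgc3 averaged 1.69% in ELS and 2.70% in control, where the highest library had 6.31%. At Traf6 control sperm averaged 0.436%, near the ELS-HFD values, with no ELS value. Gnas had no chow value.

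**Figure D2:**
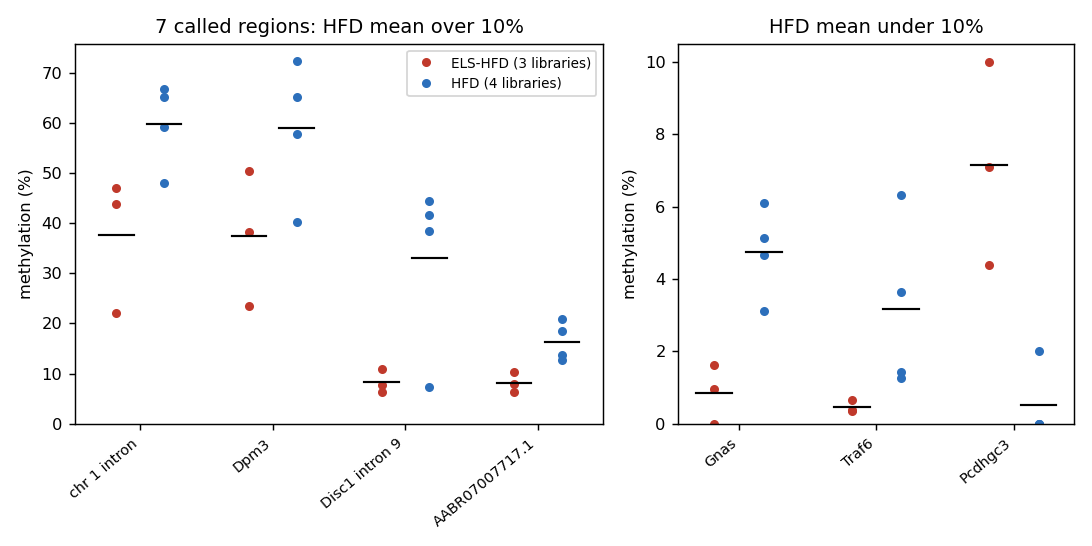
Methylation (y axis, %) of the 7 called regions, with ELS-HFD libraries left of HFD libraries, a point for each library and a bar at the group mean. Only Pcdhgc3 is higher in ELS-HFD, and at Disc1 a single HFD library sits at the ELS-HFD level; names are of the nearest or holding gene.

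The largest difference among regions without overlap lay in exon 5 of Cbx6 (chr7:121052909-121053035, 12 CpGs), a chromodomain subunit of Polycomb repressive complex 1. Methylation was 32.3%, 38.9% and 18.1% in ELS-HFD, against 62.1%, 55.99%, 51.5% and 50.3% in HFD. The highest ELS-HFD library lay well below the lowest HFD library, and the mean difference was -25.2 points (limma, adjusted p = 0.159). The authors' q-value for it was 1.

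Other large decreases covered a range of genes. An intergenic region 24476 bp before Gja1, which encodes the gap junction protein connexin 43 (chr20:37852122-37852227), had 27.1%, 19.8% and 17.03% in ELS-HFD, against 35.4%, 32.2%, 40.7% and 50.5% in HFD. In intron 10 of Adamts18, a secreted metalloprotease (chr19:46075696-46075795), methylation was 27.03%, 26.5% and 28.6% in ELS-HFD, against 43.3%, 48.7%, 34.8% and 43.8% in HFD. In exon 29 of Bahcc1 (chr10:109477830-109478218) it was 68.1%, 55.6% and 64.2% in ELS-HFD, against 76.2%, 75.1%, 80.4% and 78.2% in HFD. The groups were apart at all 3, by differences of -18.4, -15.3 and -14.9 points. Of the 10 largest decreases without overlap, Pheta1 held 2, and regions nearest to Gtf2a1, AABR07066828.2 and Mrm1 differed by -18.9, -17.6 and -17.2 points. The Gtf2a1 region lies 55591 bp from that gene's start and in an exon of another transcript, and the Mrm1 region lies 114370 bp from its start.

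Large increases without overlap were fewer and smaller. Exon 9 of a transcript whose nearest promoter is AABR07001497.1 (chr1:47654028-47654441) had 30.9%, 25.8% and 40.5% in ELS-HFD, against 13.7%, 17.7%, 15.7% and 12.4% in HFD. An exon region near LOC499240 (chr1:174351581-174351719) had 82.8%, 80.6% and 82.8% in ELS-HFD, against 62.8%, 74.8%, 52.7% and 74.3% in HFD. The groups were apart by 17.5 and 15.9 points. An intergenic region 10694 bp before Ngfr, the low-affinity neurotrophin receptor (chr10:83418729-83418781), had 34.98%, 24.97% and 27.2% in ELS-HFD, against 21.3%, 21.4%, 18.05% and 23.2% in HFD. The rest of the 10, nearest to LOC102549408, Crygn, Ssh1, Tescl, AABR07007833.2, 5_8S_rRNA and U6, were higher by 7.68 to 11.8 points. The last 2 names are of small RNAs with many near-identical copies, but only as nearest promoters. The 5_8S_rRNA region is intergenic, 1696 bp from that start. The U6 region lies 7953 bp from the U6 start, in exon 24 of another transcript.

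**Figure D3:**
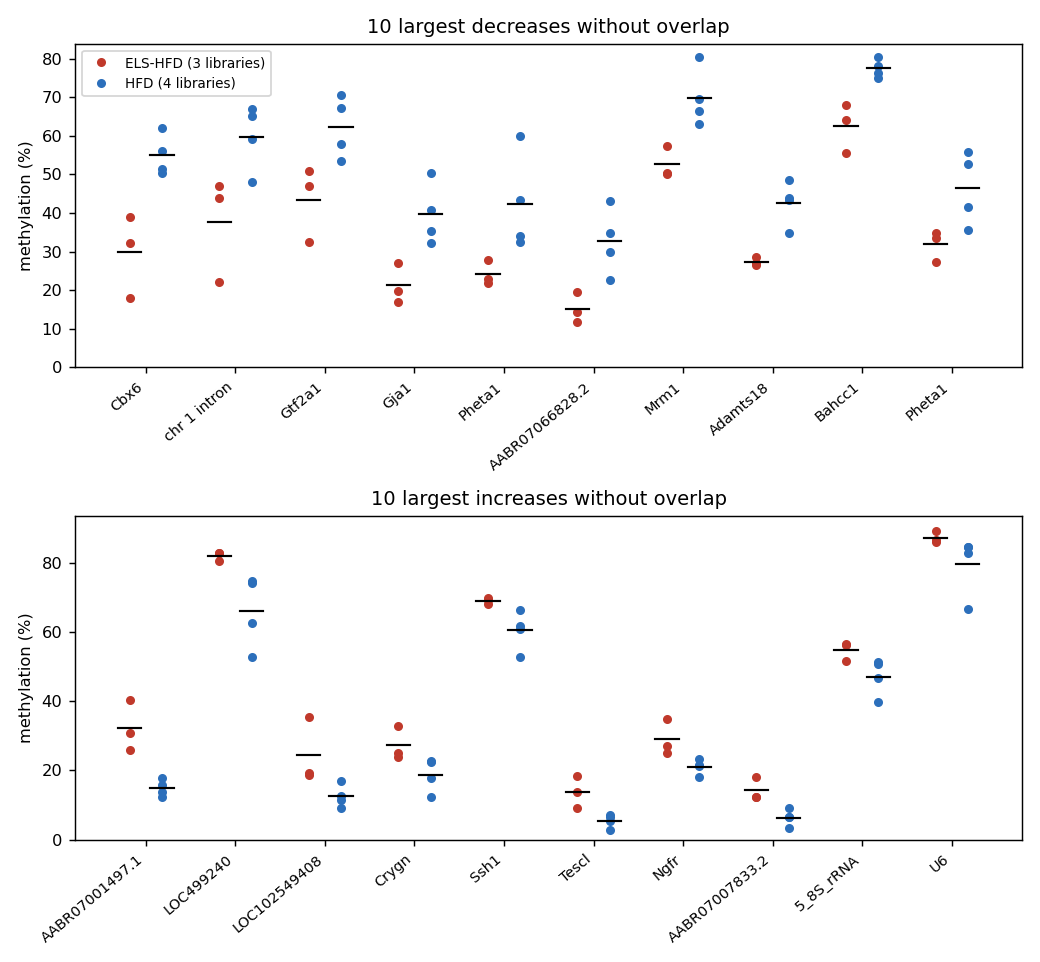
Methylation (y axis, %) at the 10 largest decreases (top) and the 10 largest increases (bottom) among regions whose groups do not overlap, ELS-HFD left of HFD, a point for each library and a bar at the mean. The decreases, from -25.2 to -14.5 points, are larger than the increases, from 17.5 to 7.68 points; names are of the nearest promoter.

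Several genes carried more than 1 listed region with the same direction in each. The 3 Cbx6 regions lie side by side in exon 5 and intron 4, and the pair beside the one described above differed by -6.67 and -8.03 points with overlapping libraries. Exon 1 of Pheta1, which encodes an adaptor of endosomal trafficking, held 3 regions (chr12:40226828-40227248). The first had 27.9%, 21.9% and 22.9% in ELS-HFD, against 34.02%, 43.3%, 32.4% and 60.1% in HFD, and the 3 differed by -18.2, -14.5 and -7.81 points. Tbx3, a T-box factor of limb and heart patterning, had 4 regions in exons 7 and 8. Its most CpG-rich (chr12:42483465-42483674, 42 CpGs, the most of any listed region) had 67.5%, 68.1% and 62.4% in ELS-HFD, against 74.1%, 79.6%, 78.3% and 84.6% in HFD. The groups were apart there by -13.1 points, and the 4 regions ranged from -13.1 to -4.90 points.

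Gli1, the zinc finger effector of Hedgehog signalling, had 3 regions in exons 9 to 11. In exon 11 (chr7:70622570-70622628) methylation was 16.4%, 12.9% and 10.4% in ELS-HFD, against 24.6%, 23.1%, 32.8% and 18.99% in HFD. Gnas had 3 regions with levels under 10% in every ELS-HFD library and differences of -3.08, -4.28 and -3.90 points. In 4 regions nearest to Arhgap21, which lie up to 204015 bp from its start in exon 7 of another transcript, the differences ran from -12.6 to -5.47 points. Gli1, Apcdd1l, Dkc1 and Arid5b were chosen after their values were seen. Neighbouring regions come from the same libraries and stretches of DNA, so they do not count as independent observations. Mixed directions also occurred, as in Apcdd1l and Dkc1, and the 3 regions of Arid5b were all higher, by 2.65 to 3.74 points with overlapping groups. The most frequent nearest names were 5_8S_rRNA with 32 regions and U6 with 25, of which 18 each were lower, followed by 7SK with 17 (11 lower), 5S_rRNA with 10 (7 lower) and U1 with 6 (3 lower).

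**Figure D4:**
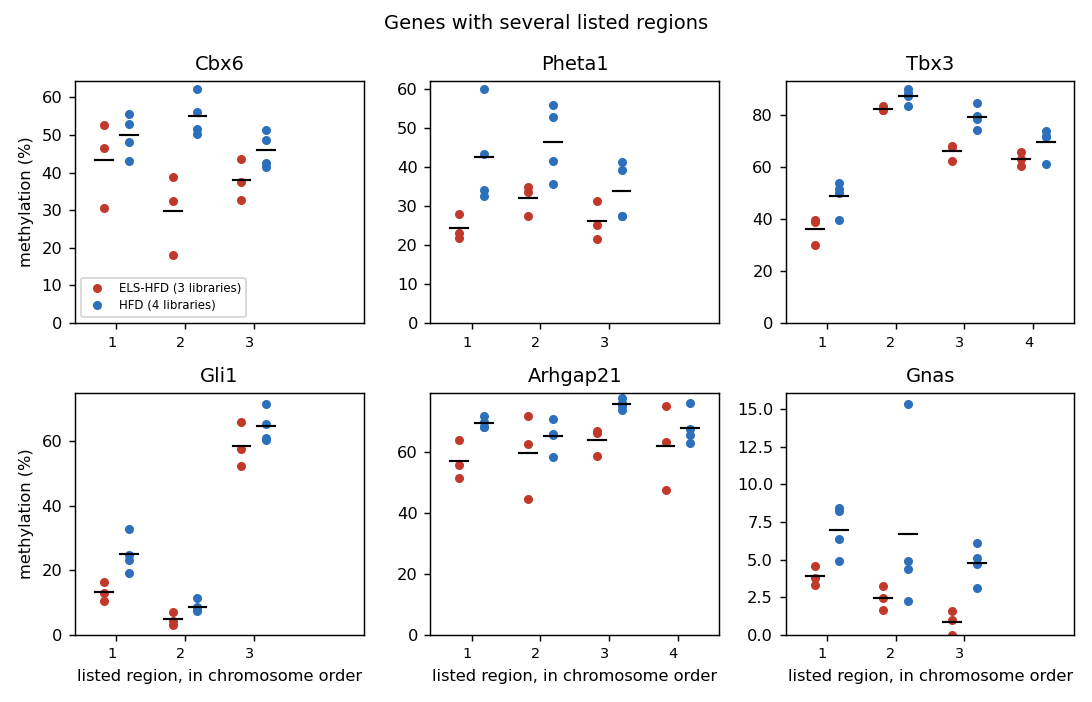
Methylation (y axis, %) at each listed region, in chromosome order (x axis), of 6 genes with several regions, ELS-HFD left of HFD, a point for each library and a bar at the mean. Every region shown has a lower ELS-HFD mean, by 3.08 to 25.2 points.

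Genes were grouped by function through their nearest promoter, and each count stands beside the whole list, where 73.9% of regions were lower, the median difference was -2.96 points and 23.9% had groups without overlap. Among 46 regions of homeobox and patterning factors, 35 were lower, the median was -3.04 points, and 11 had no overlap, all of them lower. Hoxb1 in exon 2, a hindbrain patterning gene, averaged 1.75% in ELS-HFD and 5.77% in HFD, and Gata3 in exon 6, a factor of T cell and inner ear development, averaged 3.54% in ELS-HFD and 10.6% in HFD. The Foxe1 exon, of a thyroid factor, averaged 2.12% in ELS-HFD and 7.05% in HFD. Among 39 regions of GTPase signalling genes, chosen by name and covering small GTPases, their regulators and heterotrimeric G protein subunits, 30 were lower, the median was -3.09 points, and 17 had no overlap, 15 of them lower and 2 of those in Gnas. Grouped by the gene that holds the region, which leaves out those nearest to Arhgap21, this set had 29 regions. Of these, 22 were lower and 14 had no overlap. Exon 7 of Rhobtb1, an atypical small GTPase (chr20:20658303-20658674), had 9.94%, 3.78% and 6.37% in ELS-HFD, against 17.4%, 19.01%, 16.02% and 24.9% in HFD. Rhobtb1 thus separated by -12.6 points.

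All 9 regions of chromatin and DNA methylation regulators were lower in ELS-HFD, with a median of -5.70 points and 2 without overlap, and 3 of the 9 are the Cbx6 regions. Of the other members, Ring1, also of Polycomb repressive complex 1, averaged 27.4% in ELS-HFD and 33.5% in HFD. The promoter of Kdm3a, a histone demethylase needed for spermatogenesis in mice, averaged 0.429% in ELS-HFD and 3.00% in HFD, without overlap. Dnmt3l, the cofactor of germline DNA methylation, differed by -1.72 points with overlap. A wider list of germline genes than the markers above held 4 regions, 2 near Piwil1 and 1 each near Tex15 and in Sohlh2, and all 4 were lower with overlapping groups.

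Imprinted genes had 7 regions, 5 lower and 2 higher, and 3 without overlap, which are the Grb10 promoter and 2 Gnas regions. Stress hormone and neurotrophin genes had 7 regions, 4 lower and 3 higher, with a median of -1.90 points and 3 without overlap. The promoter of Pomc, the precursor of ACTH and endorphin, averaged 1.30% ± 0.67 (SD, n = 3) in ELS-HFD and 3.53% ± 1.90 (SD, n = 4) in HFD, and the groups did not overlap. A second Pomc region, 15469 bp before the start, averaged 3.70% in ELS-HFD and 1.35% in HFD, a difference of 2.35 points in the other direction with overlap. An intergenic region 47308 bp before Mc2r, the ACTH receptor, averaged 0.70% ± 0.71 in ELS-HFD and 3.44% ± 1.24 in HFD. Sgk1, a kinase induced by glucocorticoids, averaged 11.99% ± 5.47 in ELS-HFD and 17.7% ± 10.4 in HFD with overlap. Pomc, Mc2r, Hoxb1, Gata3, Foxe1, Ring1, Kdm3a, Dnmt3l, Fasn, Cebpb and Kcnn3 were chosen for the text after their values were seen.

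Among insulin and lipid metabolism genes, 7 of 12 regions were lower and 5 had no overlap. The promoter of Fasn, fatty acid synthase, averaged 0.851% in ELS-HFD and 3.79% in HFD, while exon 1 of Cebpb, a factor of fat cell formation, averaged 2.66% in ELS-HFD and 0.161% in HFD. Exon 16 of Lrp1, a lipoprotein receptor (chr7:70890849-70890943), had 34.9%, 33.6% and 34.8% in ELS-HFD, against 22.6%, 31.3%, 27.8% and 25.4% in HFD. Lrp1 was thus the largest member difference without overlap, at 7.68 points. Acacb, which makes malonyl-CoA, was higher by 8.02 points, but with 43.7% in 1 ELS-HFD library and 14.3% and 17.01% in the others.

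Axon guidance and cadherin genes had 20 regions, 12 lower and 8 higher, with 7 without overlap, among them the called Pcdhgc3 exon. Ion channel and receptor genes had 21 regions, 15 lower, and 7 without overlap, such as the potassium channel gene Kcnn3, whose region averaged 7.77% in ELS-HFD and 16.2% in HFD. Solute carriers had 17 of 23 regions lower, zinc finger factors 38 of 49, glycosylation genes 9 of 14 and immune and NF-kB genes 12 of 14, with medians from -3.39 to -2.81 points. The zinc finger gene Zfp219 had a region at a transcript end (chr15:28403000-28403098) with 8.59%, 4.30% and 8.58% in ELS-HFD, against 19.9%, 24.1%, 15.6% and 21.9% in HFD, a difference of -13.2 points. Wnt genes had 5 of 6 regions lower and psychiatric risk genes 8 of 11, with no region of the psychiatric set free of overlap. Grouped by the gene that holds the region, the psychiatric set had 7 regions, 5 lower and 1 called, in Disc1.

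Several other set members had large differences, most of those described here with overlapping libraries. The Wnt11 region in exon 2 (chr1:163805189-163805305), of a secreted Wnt ligand, had 20.6%, 14.2% and 23.9% in ELS-HFD, against 21.1%, 45.0%, 38.3% and 23.4% in HFD. The groups overlapped, at a difference of -12.4 points. The intron 2 region of Sema3g, a secreted semaphorin (chr16:7306434-7306512), had 45.6%, 31.5% and 58.5% in ELS-HFD, against 23.1%, 39.7%, 34.7% and 22.0% in HFD, the largest increase of any set member at 15.3 points but with overlap. The region nearest to Sox5, a factor of cartilage and neuron development, had 23.0%, 28.9% and 2.90% in ELS-HFD, against 2.20%, 43.8%, 61.5% and 24.6% in HFD, so libraries of both groups spanned low and high values. Exon 2 of Zbtb45 (chr1:65566483-65566860) separated all libraries, with 54.7%, 54.4% and 51.8% in ELS-HFD, against 63.9%, 69.9%, 67.0% and 58.5% in HFD, a difference of -11.2 points. A promoter region of Shank2, a synaptic scaffold (chr1:217345172-217345439), had 31.7%, 51.3% and 43.2% in ELS-HFD, against 39.3%, 75.5%, 58.7% and 24.9% in HFD, a difference of -7.52 points with overlap that turned to 1.12 points without HFD library 2. Another (chr1:217459106-217459400) had 62.8%, 52.4% and 88.3% in ELS-HFD, against 57.9%, 89.2%, 83.4% and 74.2% in HFD, a difference of -8.35 points with overlap that was -0.624 points without ELS-HFD library 2 and -18.6 points without ELS-HFD library 3.

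The same separation contrast exists on chow, in another table and with no library in common. Of the 1653 regions, 306 (18.5% of this list and 16.5% of the ELS against control list) overlap a listed chow region by at least 50% of both lengths. There 165 were lower after separation on both diets, 56 were higher on both, 49 were lower on the high-fat diet and higher on chow, and 36 were the reverse, so 72.2% shared a direction. Both lists were chosen for a difference, and 60.9% of the whole chow list was lower, so this share is a description. Across these regions the differences correlated with a Pearson r of 0.546 and a Spearman coefficient of 0.521, and the points on each axis share that diet's libraries and are not independent replicates.

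In 12 of the 306 regions the groups did not overlap on either diet, 8 lower on both, 3 higher on both and 1, near Vom2r37, opposite. Cbx6 exon 5 was again among them, with 48.8%, 32.8%, 51.8% and 34.2% in ELS, against 68.5%, 58.5% and 63.7% in control sperm. The difference there was -21.7 points on chow beside -25.2 points on the high-fat diet. Dnajc11 (promoter, chr5:169108751-169109089), a mitochondrial co-chaperone, differed by -11.3 points on the high-fat diet and by -12.997 points on chow. The corresponding values near LOC499240 were 15.9 and 13.02 points, near LOC102549408 11.8 and 9.04 points, and near LOC685501 -8.13 and -7.15 points. On the high-fat diet the LOC102549408 region had 18.6%, 19.1% and 35.4% in ELS-HFD, against 9.22%, 12.5%, 16.9% and 11.6% in HFD, and its difference was 6.28 points without ELS-HFD library 3. The LOC685501 region had 26.8%, 12.8% and 26.4% in ELS-HFD, against 26.9%, 35.3%, 29.05% and 29.4% in HFD, and its difference was -3.53 points without ELS-HFD library 2.

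**Figure D5:**
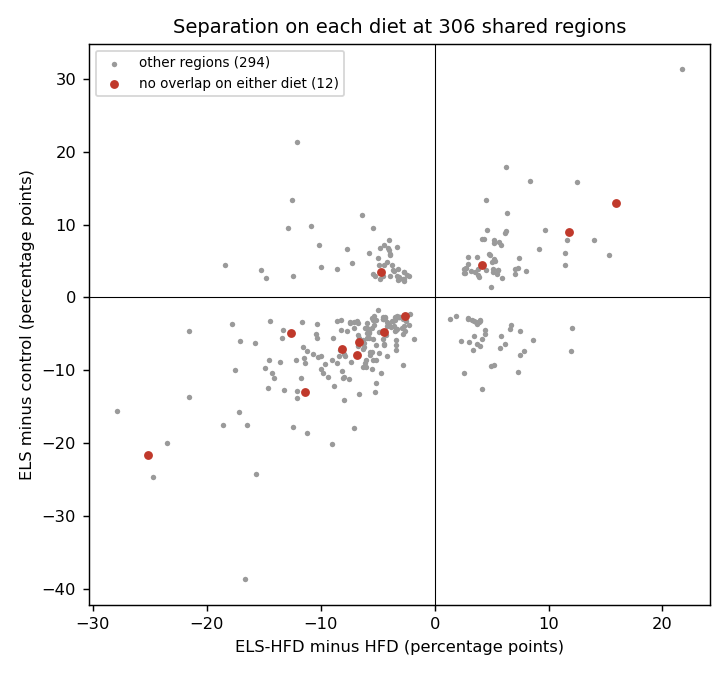
Difference ELS-HFD minus HFD (x axis) against ELS minus control (y axis), both in percentage points, at the 306 regions listed for both. The points without overlap on either diet (12, in red) have the same sign on both axes except 1, and Cbx6 is the lowest of them at -25.2 and -21.7 points.

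Whether separation differed between the diets was tested by limma's interaction over the 14 libraries, only at regions listed for separation on both diets. Regions listed on the high-fat diet alone were not tested. The result therefore cannot decide whether separation differed between the diets over the whole list. At the 306 regions 0 passed (0% of those tested, lowest Benjamini-Hochberg adjusted p = 0.171), and 39 had an unadjusted p under 0.05, 27 of them more negative on the high-fat diet and 12 more positive. The region before Gja1 was -18.4 points on the high-fat diet and 4.43 points on chow, with ELS at 33.7%, 35.8%, 35.1% and 36.8% and control at 34.2%, 34.8% and 23.8% (interaction adjusted p = 0.218, limma). The first Arhgap21 region was -12.6 points on the high-fat diet and 13.3 points on chow (adjusted p = 0.264, limma). These regions were picked for their opposite signs, and the difference between diets did not pass the adjusted test.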

How the data were processed

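Sperm genomic DNA was isolated and RRBS libraries were made with the Zymo-Seq RRBS kit, per the labels' protocols; the submitters' processing notes name Trim Galore, Bismark, Bowtie and build Rnor_6.0, without roles or versions. The authors deposited methylation as a percent per region and library, with a p-value and q-value per region from their caller and a mean difference, per the file headers. Read coverage per region is not given in the sources used here. The submitters describe amygdala RNA in the design text but sperm RRBS in every sample label; the labels were followed. Columns were matched to groups by their letter codes, which carry no replicate numbers. Differences were computed from library columns; 189 regions then differ by under 2.5 points and 4 change sign, none of them called. limma 3.58.1 (R 4.3.3) was fitted to log2((percent + 1)/(100 - percent + 1)) over all 1653 regions, and to 306 regions for the interaction, and was tested on simulated data. Regions were named by nearest promoter. The text names called regions, the 10 largest decreases and 10 largest increases without overlap, up to 3 regions per gene list, genes with most regions and up to 5 regions apart on both diets; other names are marked. Members and lists were chosen with earlier results of these data known. Some results are not reported here.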

Additional observations from a re-analysis of the deposited data

Results flagged for a closer look

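In groups of 4 libraries, a library far from the others was found in 9 of 111 groups tested, where chance gives about 1 in 20. In HFD, the U6 region on chromosome 17 had 66.64% in 1 library, against 82.9% to 84.6% in the others. The Disc1 intron region, nearest to AABR07044106.1, had 7.402% in 1 HFD library, against 38.6% to 44.4%. Irf2bp2 had 54.27% in 1 HFD library, against 31.2% to 34.6%, and Apc2 had 30%, against 16.2% to 18.4%. Pcdhgc3 had 2% in 1 HFD library and Wnt2 had 3.953%, with the other libraries at 0%. In ELS, Sstr5 had 89.62%, against 88.2% to 88.5%, Galnt17 had 26.17%, against 14.3% to 16.2%, and Wnt2 had 2.253%, with the others at 0%. Where the others all stand at 0%, as at Pcdhgc3 and Wnt2, any value above 0% is flagged.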

How the results depend on the processing

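No paired analysis was possible because the table columns carry no replicate numbers, so the replicate block was not run. Called regions numbered 3 at q under 0.01 and 4 with at least 15 CpGs. The share lower in ELS-HFD was 71.4% among 514 regions with a difference of at least 5 points and 79.5% among 171 with at least 15 CpGs, and 72.6% to 75.1% leaving out each library. Regions without overlap numbered 64 with a gap of at least 2 points, 48 with at least 15 CpGs, and 488 to 635 leaving out each library. limma called 0 regions in every setting run; leaving out each library, 275 to 443 had an unadjusted p under 0.05 and the lowest adjusted p was 0.0819 to 0.258. The interaction stayed at 0, with 25 to 40 unadjusted and a lowest adjusted p of 0.055 to 0.327. Of 621 values of 69 named regions under alternatives, 618 kept direction. Where the groups do not overlap, leaving out a library cannot turn the direction. Many regions were named for that or for a large difference, so the count is partly fixed by their choice. Without ELS-HFD library 2 Acacb gave -1.33 and Wnt2 -0.392 points, and without HFD library 2 the first Shank2 region gave 1.12 points (leave-one-out ranges up to 13.4, up to 6.33 and down to -15.7 points). The cause was not tested. Unknown depth limits how firmly values near 0% can be read.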

Other observations

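In 33 regions of the list 1 HFD library lay 20 points or more from the nearest other HFD library, and 18 of these regions were lower and 15 higher in ELS-HFD.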
